A study of Mus musculus with 6 samples.

Results

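Notch receptors, their nuclear partners and their targets were followed through group 2 innate lymphoid cells (ILC2), the innate lymphocytes that make type 2 cytokines, as these cells were found in the thymus, in mesenteric lymph nodes (MLN) and after culture of MLN cells. The genes are Notch1, Notch2, Notch3, Rbpj, Maml2, Hes1, Hes5, Hey1, Dtx1 and Nrarp, 10 of the 37991 genes in the count files, matched by symbol to 1 Ensembl identifier each. Messenger RNA was sequenced from 6 libraries, 2 for each of 3 groups, with about 300000 cells per library. The groups are ILC2 sorted from thymus, ILC2 sorted from MLN and used fresh, and sorted MLN ILC2 grown for 1 week in 3 cytokines (IL-33, IL-25 and IL-7) at 10 ng/ml each. The sort took lineage-negative cells with Thy1 and ST2 on their surface. All groups came from homozygous Id1 transgenic mice, which were generated in FVB/N and then crossed for at least 10 generations to C57BL/J. In these mice the proximal promoter of lck, a gene of the T lineage, drives Id1, whose product blocks the E protein family of transcription factors. Every group therefore carries the transgene, T cell development is blocked in these mice, and no group without the transgene was compared. The age of the mice, and whether the libraries of a group came from separate animals or cultures, is not given in the sources used here, so p values measure the spread between these libraries only.

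Notch receptors are cell surface proteins that are cut when a ligand of the Delta or Jagged type on a neighbouring cell binds them. The freed intracellular part enters the nucleus, joins the DNA-binding protein RBPJ and a Mastermind-like coactivator, and switches on genes such as those of the HES and HEY repressors. Without it, RBPJ holds corepressors on DNA. In the thymus, Notch1 signals direct progenitors into the T lineage, and Notch signals have also been tied to the development of innate lymphoid cells.

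RBPJ binds DNA through a core that was searched here as TGGGAA, together with TTCCCA, the same core read on the other strand, in the 250 bases before each start site in RefSeq (build GRCm38.p6). Windows were at hand for 8 of the 10 genes, and not for Hes1 and Hey1. The core was in 4 of the 10 windows of these 8 genes, which belong to Rbpj, Hes5 and Maml2, and in 21.6% of all 32851 windows of that length. The windows of Notch1, Notch2, Notch3, Dtx1 and Nrarp did not hold these letters. The 2 windows of Rbpj overlap and share 1 match, so 1 site is counted in both. The following stretches come from a gene whose transcript was close to absent (Hes5), a gene that rose in culture (Rbpj) and a target that was higher in thymus (Nrarp), with the core in capitals, 5′ to 3′ on the plus strand. Hes5 and Rbpj each held the core on both strands. The stretch of Rbpj ends where an annotated exon begins and shows the match 149 bases before the start, while the other, 65 bases before it, lies beyond that end. A match is a run of letters and not a measured binding site.
Hes5, chr4:154960673-154960922: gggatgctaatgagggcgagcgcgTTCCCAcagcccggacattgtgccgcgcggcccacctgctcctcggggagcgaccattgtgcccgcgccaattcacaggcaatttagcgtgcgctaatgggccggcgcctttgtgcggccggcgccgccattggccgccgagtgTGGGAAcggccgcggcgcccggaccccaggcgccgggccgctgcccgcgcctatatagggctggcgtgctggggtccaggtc
Rbpj, chr5:53590096-53590213: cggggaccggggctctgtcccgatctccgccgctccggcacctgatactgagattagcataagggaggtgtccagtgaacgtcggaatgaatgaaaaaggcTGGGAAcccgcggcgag
Nrarp, chr2:25180508-25180757: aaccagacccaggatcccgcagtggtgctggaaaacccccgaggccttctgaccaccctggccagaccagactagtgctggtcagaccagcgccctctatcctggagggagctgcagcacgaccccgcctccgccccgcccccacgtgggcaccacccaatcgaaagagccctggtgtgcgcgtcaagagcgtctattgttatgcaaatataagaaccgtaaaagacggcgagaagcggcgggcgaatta

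Library totals ran from 35280692 to 40578264 counts, and levels are given as counts per 1000000 (CPM) on TMM-scaled totals. Mean Id1 levels were 424 CPM (thymus), 451 CPM (fresh MLN) and 1.33 CPM (cultured), and transgenic and native Id1 reads cannot be told apart in these counts. Markers of ILC2 were present in all groups, with Gata3 at 660, 611 and 1049 CPM and Il1rl1, which encodes ST2, at 1450, 1851 and 2315 CPM in thymus, fresh and cultured cells, while Thy1 was at 731, 335 and 113 CPM. Summed markers of other cells also moved between groups. The 8 macrophage and monocyte genes summed to 6.56 to 10.5 CPM (thymus), 87.3 to 92.4 CPM (fresh) and 20.2 to 21.1 CPM (cultured). The sum in fresh cells was mostly Cybb, at 69.5 CPM there and at 0.619 in thymus and 0.0715 in cultured cells. Cd68 led the sums in thymus and cultured cells, at 3.94 and 16.4 CPM, and stood at 3.98 in fresh cells. The 10 T cell and thymocyte genes, led by Cd3e and Cd3g, summed to 98.9 to 99.0, 111 to 118 and 54.7 to 63.0 CPM in the same order, with no counts of Ptcra in thymus and of Rag1 and Rag2 in cultured cells. That sum is mostly Cd3e. Higher in thymus than in fresh MLN were 5 of the 9 tested (Rag1, Rag2, Dntt, Cd4 and Cd3d), beside 25.3% of all genes. Of the 9, 1 was lower (Cd3e), beside 22.0% of all genes, and the median log2 fold change was 0.92. Rag1, Rag2 and Dntt passed the filter on low counts through the thymus libraries alone, so their direction was set in advance. These counts and this median describe the list and are no test. The 8 B cell genes, led by Ighm and Cd79b, summed to 75.3 to 82.4, 156 to 201 and 110.0 to 124 CPM, with no counts of Pax5 and Ebf1 in fresh cells. Sums for dendritic cells, NK cells and ILC1, ILC3 and mast cells and basophils were each highest in cultured cells, with ILC3 genes at 553 to 663 CPM and mast cell and basophil genes, led there by Mcpt8, at 588 to 867 CPM. Of these lists Siglech had no counts in thymus, Klrb1c, Klre1 and Klra8 had none in cultured cells, Il22 had none in fresh cells and Il17a had none in any group. The 12 cell cycle genes summed to 1970 to 2110 CPM (thymus), 195 to 225 CPM (fresh) and 1740 to 1880 CPM (cultured). Fewer cells of a type and less RNA per cell cannot be told apart in such bulk libraries.

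Thymus ILC2 had more of the Notch targets Hey1, Hes1, Dtx1 and Nrarp and less Rbpj and Maml2 than fresh MLN ILC2, while the receptors were not called. Some thymocyte markers were also higher in thymus. Mean levels in thymus and fresh MLN were 0.600 and 0.0133 CPM for Rag2 and 0.528 and 0.0133 CPM for Rag1. They were 0.849 and 0.0788 CPM for Dntt, 5.81 and 0.966 CPM for Cd4 and 1.88 and 0.995 CPM for Cd3d. Cd3e was lower in thymus (log2 fold change -0.38 ± 0.08), Cd3g, Cd8a and Cd8b1 were not called, and Ptcra had no counts there. The part of these markers in the levels of Hes1, Hey1, Dtx1 and Nrarp was not tested. Of the 9 genes that passed the filter on low counts, 4 were higher and 2 lower in thymus, so 6 were called, beside 47.3% of all 16231 genes tested (25.3% higher and 22.0% lower). For 7 the libraries of the groups did not overlap, beside 72.8% of all genes. Cultured cells had more Notch1, Notch3 and Rbpj and less Dtx1, Maml2 and Hes1 than fresh MLN cells, which made 3 higher and 3 lower, beside 77.6% of all genes tested (39.4% higher and 38.1% lower), and 6 did not overlap, beside 89.2%. Hes5 was the gene left out by the filter. The median absolute log2 fold change over the 9 genes was 0.74 between thymus and fresh MLN, against 0.34 over all genes tested. Between cultured and fresh cells it was 1.16, against 0.87. The Notch genes were chosen with earlier results of these data known, so these medians describe them and are no test. Both comparisons use the same fresh MLN libraries, so their values are not independent. A gene is called at an adjusted p under 0.05 in the quasi-likelihood test of edgeR, adjusted over all genes tested. With 2 libraries against 2 an exact permutation test of a single gene could not go below p = 0.333, so none was run.

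**Figure D1:**
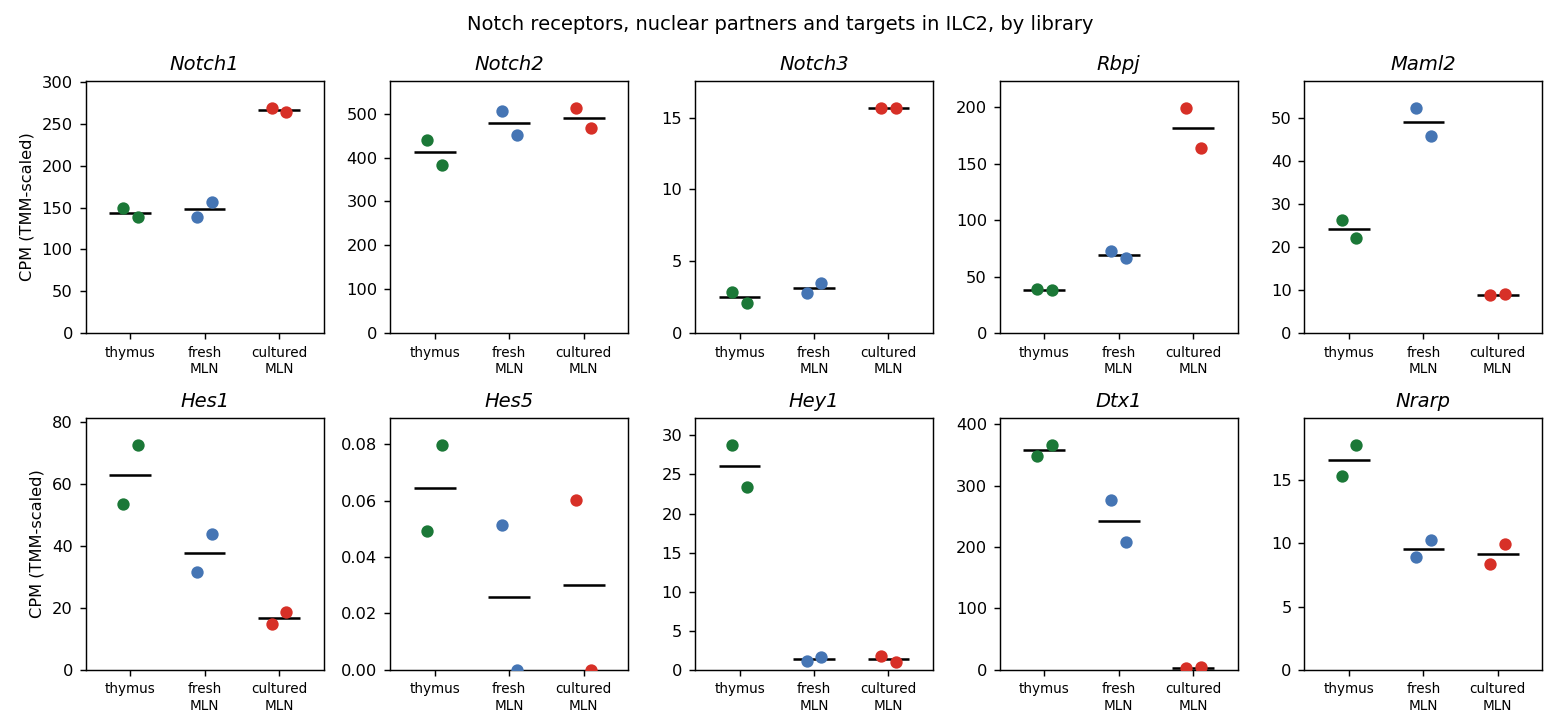
TMM-scaled CPM (vertical axes, each starting at 0) of the 10 genes in thymus, fresh MLN and cultured MLN ILC2; points are libraries and bars are means of 2. Hey1 stands near 26.1 CPM in thymus and under 2 CPM elsewhere, Dtx1 is at 3.40 CPM in cultured cells, and Hes5 has at most 3 counts in a library.

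Notch2 was the most abundant receptor in each group. Its level was 441 and 382 CPM in thymus, 507 and 451 in fresh MLN cells and 513 and 467 in cultured cells. The libraries of fresh and cultured cells overlapped, and both thymus libraries lay below them. Per kilobase of exon, which allows receptors to be compared, Notch2 stood at 38.2, 44.4 and 45.5 CPM per kb in thymus, fresh and cultured cells, against 10.1, 10.4 and 18.7 for Notch1. Notch2 was not called between thymus and fresh MLN (log2 fold change -0.22 ± 0.09 SE, edgeR adjusted p = 0.058). It was called with the replicate block (adjusted p = 0.012), no filter (0.013), DESeq2 (0.025), RLE factors (0.034) and upper-quartile factors (0.043), and without fresh MLN replicate 2 or thymus replicate 1. It was called higher in cultured cells than in thymus, at 0.25 ± 0.09 (edgeR adjusted p = 0.020), a call that was lost without cultured MLN replicate 1 (0.18, adjusted p = 0.18), without thymus replicate 2 (0.15, adjusted p = 0.16) and with library totals alone.

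Notch1, the receptor that drives T lineage entry of thymic progenitors, was not called between thymus and fresh MLN. It measured 149 and 138 CPM in thymus, 139 and 156 in fresh MLN cells and 269 and 264 in cultured cells. Thymus and fresh libraries overlapped, with a log2 fold change of -0.04 ± 0.07 (edgeR adjusted p = 0.71), and both cultured libraries lay above all others. The rise in culture was 1.81-fold (log2 0.85 ± 0.07, edgeR adjusted p = 2.0e-07). Exons of 0610009E02Rik and Gm13568 lie on the strand opposite to Notch1, and the strand setting of the counts is not given in the sources used here. These genes had at most 27 and 2 counts in a library.

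Notch3, itself a target of Notch signals in T lineage cells, was the receptor with the largest change. It was at 2.88 and 2.10 CPM in thymus, 2.78 and 3.45 in fresh MLN cells and 15.6 and 15.7 in cultured cells. Thymus and fresh libraries overlapped, and both cultured libraries stood far above them. The increase after culture was 5.02-fold (log2 2.33 ± 0.17, edgeR adjusted p = 3.1e-08). Even so its cultured level per length, 1.93 CPM per kb, was far below those of Notch1 and Notch2. Notch4, the remaining receptor, averaged 2.298, 2.77 and 2.00 CPM in thymus, fresh and cultured cells and was not called in any of the 3 comparisons. With library totals alone it was called lower in culture than in fresh MLN.

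Rbpj, the DNA-binding partner of all Notch receptors, differed between each pair of groups. It measured 38.7 and 38.0 CPM in thymus, 72.7 and 66.5 in fresh MLN cells and 199.5 and 164 in cultured cells. No groups overlapped, with thymus lowest and cultured cells highest. Thymus cells had 1.82-fold less Rbpj than fresh MLN cells (log2 -0.86 ± 0.09, edgeR adjusted p = 5.9e-06), and cultured cells had 2.61-fold more (log2 1.39 ± 0.09, edgeR adjusted p = 8.2e-09). Between cultured and thymus cells the difference was 4.74-fold.

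Maml2, a Mastermind-like coactivator of the Notch complex, had another order. It was at 26.4 and 22.2 CPM in thymus, 52.3 and 45.8 in fresh MLN cells and 8.78 and 9.02 in cultured cells. Fresh MLN cells were highest and cultured cells lowest, with no overlap. The log2 fold change was -1.02 ± 0.10 in thymus (edgeR adjusted p = 2.6e-06) and -2.46 ± 0.11 in culture (edgeR adjusted p = 1.9e-10), both against fresh MLN. Its paralogs went the other way in culture. Maml3 averaged 12.1, 8.65 and 33.0 CPM in thymus, fresh and cultured cells, and Maml1 averaged 69.7, 76.9 and 119.7 CPM, so that both rose in culture, by log2 fold changes of 1.93 ± 0.10 and 0.64 ± 0.07.

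Hes1, a repressor that Notch signals induce in T lineage progenitors, was highest in thymus and lowest after culture. Its levels were 53.4 and 72.6 CPM in thymus, 31.5 and 43.7 in fresh MLN cells and 14.9 and 18.7 in cultured cells. No groups overlapped. Thymus cells had 1.68-fold more Hes1 than fresh cells (log2 0.74 ± 0.16, edgeR adjusted p = 0.0019), and cultured cells had 2.24-fold less (log2 -1.16 ± 0.17, edgeR adjusted p = 3.3e-05). Hes5, a related target known from neural progenitors, had 2 and 3 counts in thymus and 2 and 0 counts in both other groups, which is at or under 3 counts per library, and no fold is given. Of the other HES and HEY genes, Hes6 was measured at 37.7, 30.8 and 35.9 CPM in thymus, fresh and cultured cells. It was called between thymus and fresh cells only, by a small difference, 0.29 ± 0.10 on the log2 scale. With RLE factors Hes6 was also called higher in culture than in fresh MLN, and with library totals alone lower in cultured cells than in thymus.

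Hey1, a repressor of the HEY family best known from vessel and heart development, set thymus cells apart. The libraries held 28.8 and 23.4 CPM (thymus), 1.13 and 1.62 CPM (fresh) and 1.81 and 0.965 CPM (cultured). Both thymus libraries lay far above the rest, and fresh and cultured libraries overlapped. The difference between thymus and fresh MLN was 19.0-fold (log2 4.25 ± 0.22, edgeR adjusted p = 5.7e-09), and 16.1-fold to 23.0-fold with a library left out. Between cultured and fresh cells the log2 fold change was 0.00 ± 0.30 (edgeR adjusted p = 1.0). Of 12 cell cycle genes, 12 were higher than in fresh MLN both in thymus and in culture, beside 25.3% and 39.4% of all genes. The part of these genes in the level of Hey1 was not tested. The 13 endothelial, stromal and epithelial genes, led by Pecam1 and Pdgfrb, summed to at most 196 CPM in thymus, 156 in fresh and 171 in cultured cells. Of the 5 tested, 1, Pecam1, was called higher in thymus (log2 0.37 ± 0.07), beside 25.3% of all genes. The endothelial genes Cdh5, Kdr and Emcn had 1, 4 and 1 counts over both thymus libraries.

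Dtx1, a Deltex protein that acts on Notch receptors and is induced by them in lymphocytes, was abundant in freshly isolated cells and nearly lost in culture. It measured 348 and 367 CPM in thymus, 277 and 208 in fresh MLN cells and 3.08 and 3.72 in cultured cells. The groups did not overlap. Thymus cells had 1.48-fold more than fresh cells (log2 0.56 ± 0.11, edgeR adjusted p = 0.00090). The fall in culture was 71.0-fold (log2 -6.15 ± 0.15, edgeR adjusted p = 6.9e-13), the largest change of the 9 tested genes in any comparison with fresh MLN. Per kilobase of exon, mean Dtx1 stood at 67.9 CPM per kb in thymus, above Notch1, Notch2 and Notch3, and at 0.645 in cultured cells. In fresh MLN its mean was 46.0, above Notch1 and Notch3 and close to Notch2 at 44.4. There the libraries of Dtx1 and Notch2 overlapped per kilobase. The summed T cell markers in cultured cells were 54.7 to 63.0 CPM against 111 to 118 in fresh cells, and their part in the fall of Dtx1 was not tested.

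Nrarp, a small ankyrin repeat protein that Notch signals induce and that limits them in turn, was higher in thymus. It was at 15.4 and 17.8 CPM in thymus, 8.89 and 10.3 in fresh MLN cells and 8.39 and 9.98 in cultured cells. Both thymus libraries lay above all others, and fresh and cultured libraries overlapped. Thymus cells had 1.73-fold more (log2 0.79 ± 0.13, edgeR adjusted p = 0.00028), and cultured cells did not pass the test against fresh cells (log2 -0.06 ± 0.14, edgeR adjusted p = 0.69).

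**Figure D2:**
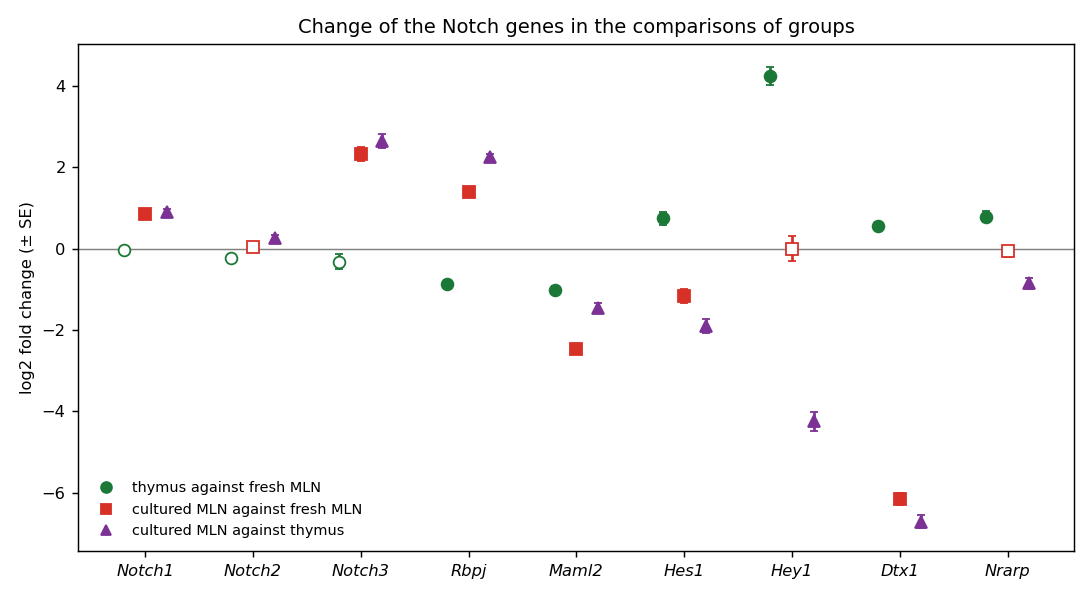
Log2 fold change with its SE (vertical axis) of the 9 tested genes (horizontal axis) in thymus against fresh MLN (green circles), cultured against fresh MLN (red squares) and cultured against thymus (purple triangles), from the edgeR fit of all 6 libraries; filled symbols passed an adjusted p of 0.05. Hey1 stands at 4.25 in thymus, Dtx1 at -6.15 in culture, and Notch1, Notch3 and Rbpj lie above 0 in both comparisons of cultured cells.

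Set against thymus, cultured cells were called for 9 of 9 tested genes, beside 72.7% of all genes, and none of the 9 overlapped, beside 86.0%. Higher after culture were 4 (Notch1, Notch2, Notch3 and Rbpj), beside 34.8% of all genes, and lower were 5 (Maml2, Hes1, Hey1, Dtx1 and Nrarp), beside 37.8%. These groups differ in organ and in culture at once, and the effects of both cannot be told apart in this comparison. The largest difference was that of Dtx1, 105-fold lower in cultured cells, and Hey1 was 19.0-fold lower. With library totals alone the calls over all genes shifted from 47.9% higher to 35.1% higher, and among the tested genes Notch2 turned to -0.01 and lost its call. The counts of the 10 genes added up to 954 to 1030 CPM in cultured, 986 to 1090 in fresh and 1060 to 1100 in thymus libraries, so the sum moved little while its parts moved in opposite directions.

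Beyond these genes, 75 further genes of the pathway were listed by role, and 67 passed the filter. Between thymus and fresh MLN 19 were higher and 16 lower, 35 in all, with a median log2 fold change of 0.01 beside 0.00 over all genes tested. Between cultured and fresh cells 23 were higher and 33 lower, 56 in all, with a median of -0.28 beside -0.01. Beside these stand 47.3% of all genes called in thymus (25.3% higher and 22.0% lower) and 77.6% in culture (39.4% higher and 38.1% lower). In the second median Dlk1, which had no counts in fresh cells, is set to its bound from 3 counts. Dlk1, Aph1c and Neurl1a, all among the 23 higher in culture, passed the filter through cultured cells alone. Dll4, lower in both comparisons, passed it through fresh MLN cells alone. The directions of these genes were thus set in advance. The counts by role below include those of the 10 genes that belong to the role.

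**Figure D3:**
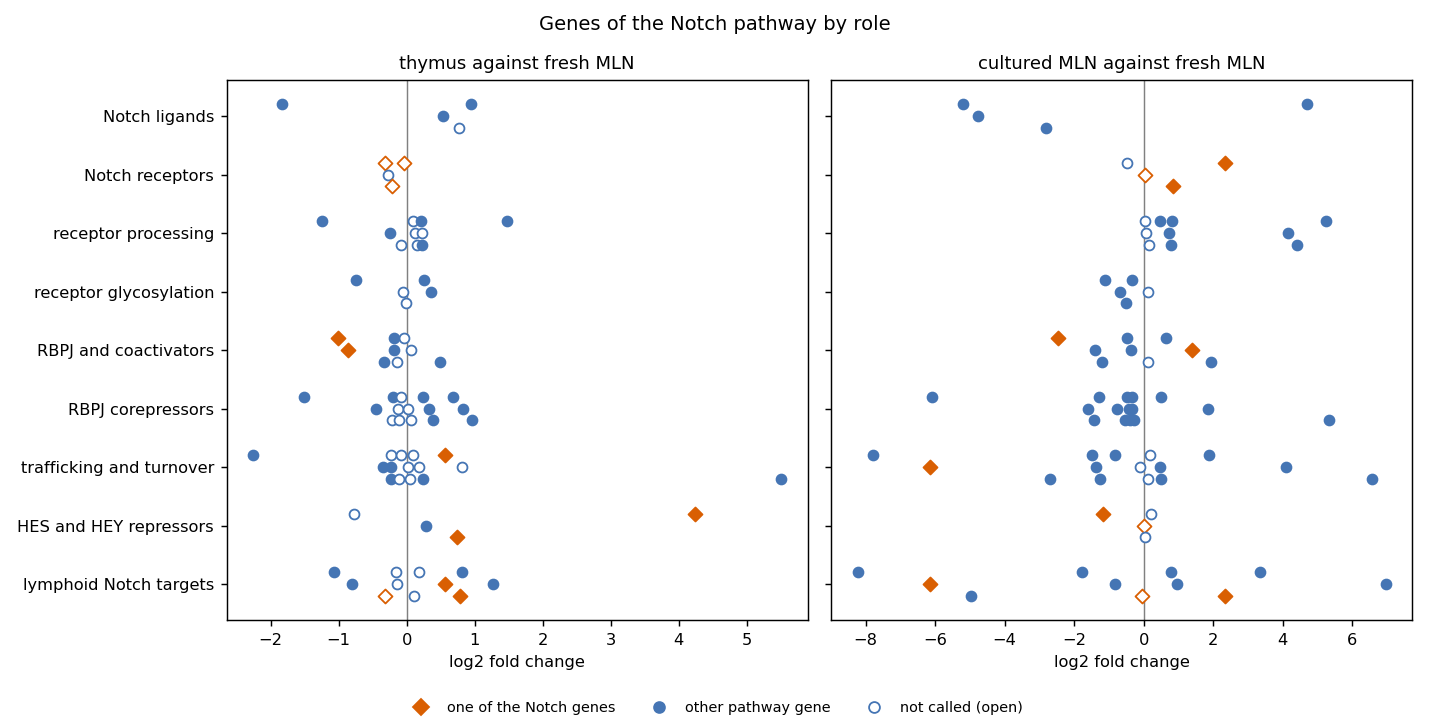
Log2 fold change (horizontal axes) of tested pathway genes, by role (vertical axis), in thymus against fresh MLN and in cultured against fresh MLN; orange diamonds are those of the 9 tested genes that belong to a role, blue circles the other pathway genes, filled symbols passed an adjusted p of 0.05, and vertical offsets within a row only separate points. Genes without counts in a group are not drawn, genes in more than 1 role are drawn in each, and Neurl1b at 5.51 and Hey1 at 4.25 stand out on the thymus side.

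The cells also carried RNA for Notch ligands, and the Jagged genes moved in opposite directions in culture. Jag1 was at 48.0 and 41.9 CPM in thymus, 34.1 and 27.9 in fresh MLN cells and 1.06 and 1.21 in cultured cells. Jag2 was at 1.87 and 1.41, 0.745 and 0.956, and 23.4 and 21.1 CPM in the same groups. Jag1 was thus higher in both freshly isolated groups and Jag2 in cultured cells, with no overlap between groups for either gene. Against fresh cells Jag1 fell 27.2-fold (log2 -4.77 ± 0.16) and Jag2 rose 26.1-fold (log2 4.71 ± 0.19) in culture. In thymus both were higher than in fresh MLN, by 0.54 ± 0.10 and 0.95 ± 0.24 on the log2 scale. The Delta-like genes were near the floor, with Dll1 at 1.11, 0.651 and 0.0151 CPM and Dll4 at 0.0892, 0.327 and 0.0427 CPM in thymus, fresh and cultured cells. Of the 5 ligand genes tested, 2 were higher and 1 lower in thymus, beside 25.3% and 22.0% of all genes. In culture 2 were higher and 3 lower, beside 39.4% and 38.1%. Dlk1, among those higher in culture, had no counts in thymus and fresh cells and passed the filter on low counts through cultured cells alone. Dll4, lower in both comparisons, passed it through fresh cells alone. The directions of both were thus set in advance, and these tallies are no test.

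Of 10 genes whose products cut the receptor, 7 were called higher in cultured cells than in fresh MLN and 0 lower. Beside these stand 39.4% of all genes called higher and 38.1% lower. The remaining 3, among them Adam10 and Adam17, were not called. Aph1c, among the 7, passed the filter on low counts through cultured cells alone, so its direction was set in advance. With library totals alone 7 were higher and 1, Adam17, lower. Furin, the convertase that cuts newly made Notch receptors and many other precursors, was at 9652 and 9462 CPM in cultured cells, 255 and 246 in fresh MLN and 294 and 293 in thymus. Both cultured libraries stood far above the others, a 38.1-fold rise (log2 5.25 ± 0.09). The gamma-secretase subunit Ncstn rose by 0.83 ± 0.06 and the catalytic subunit Psen2 by 0.78 ± 0.07 on the log2 scale. Aph1b rose by 4.42 ± 0.27, and its counts are uncertain because Aph1c is a near-identical copy. Psen2 was lower in thymus than in fresh MLN (-1.24 ± 0.07). In thymus 3 genes of this role were higher and 2 lower, beside 25.3% and 22.0% of all genes. The sheddase Adam10 averaged 170.1 CPM in thymus, 146 in fresh MLN cells and 164 in cultured cells and was called higher in thymus than in fresh MLN by 0.22 ± 0.08 on the log2 scale. With RLE or upper-quartile factors that call was lost, and with RLE factors Adam10 was called higher in culture than in fresh MLN.

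Of 5 genes that put sugars on Notch, 4 were lower in culture than in fresh MLN and 0 higher. Beside these stand 38.1% of all genes called lower and 39.4% higher. Mfng, a Fringe enzyme that alters which ligands a receptor answers to, fell by 1.10 ± 0.08 on the log2 scale, from 143 to 66.5 CPM. Lfng, another Fringe enzyme, fell by 0.51 ± 0.09, and Poglut1, which adds glucose, by 0.67 ± 0.08. In thymus Pofut1, which adds fucose to the receptor, was lower at -0.74 ± 0.08, and Lfng and Rfng were higher at 0.36 ± 0.09 and 0.26 ± 0.08.

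Among RBPJ and its 8 listed coactivators, 3 were higher and 5 lower in culture, beside 39.4% and 38.1% of all genes. In thymus 1 was higher and 5 lower, beside 25.3% and 22.0%. Crebbp and Kat2a, histone acetyltransferases with broad roles, fell in culture by 1.41 ± 0.07 and 1.19 ± 0.07 on the log2 scale. Ep300 averaged 250.2 CPM in thymus, 258 in fresh and 279 in cultured cells without a call, although with RLE factors it was called higher in cultured cells than in thymus. In thymus Maml3 was higher than in fresh MLN at 0.49 ± 0.10, and Crebbp and Kat2b were lower at -0.34 ± 0.07 and -0.19 ± 0.06. The call of Kat2b was lost with library totals alone.

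Of 15 corepressor genes tested, 3 were higher and 12 lower in culture, beside 39.4% and 38.1% of all genes. In thymus 6 were higher and 3 lower, beside 25.3% and 22.0%. Tle4, of the Groucho-related corepressors, dropped from 79.8 CPM in fresh to 1.17 in cultured cells, 68.2-fold (log2 -6.09 ± 0.11). Tle3, its paralog, rose 3.63-fold from 174 to 631 CPM and was also higher in thymus at 309 CPM. Ctbp2 rose from 0.379 to 15.3 CPM. Tle2 was lower in thymus than in fresh MLN at -1.51 ± 0.13, and L3mbtl3, a partner of RBPJ, was higher at 0.68 ± 0.10.

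Genes for traffic and turnover of receptors and ligands held wide changes in both directions. Neurl1b, a ubiquitin ligase that acts on ligands, was at 17.3 and 15.1 CPM in thymus, 0.334 and 0.372 in fresh MLN cells and 5.31 and 6.75 in cultured cells. Thymus was highest and fresh MLN lowest, with no overlap. The difference between thymus and fresh MLN was 45.6-fold (log2 5.51 ± 0.22), larger than that of Hey1. Dtx4, a paralog of Dtx1, was at 32.9 and 31.4 CPM in thymus, 149 and 159 in fresh MLN cells and 0.634 and 0.744 in cultured cells. Like Dtx1 it was nearly lost in culture, a 221-fold fall (log2 -7.79 ± 0.12), but lower in thymus (-2.26 ± 0.07), where Dtx1 was higher. Dtx2 averaged 28.7, 27.8 and 31.4 CPM in thymus, fresh and cultured cells with no call, although with RLE factors it was called higher in culture, and Dtx3 averaged 74.2, 86.7 and 120.4 CPM and rose in culture by 0.47 ± 0.07. Aak1, a kinase of endocytosis, fell by 2.69 ± 0.10 in culture, and Numbl, related to the Notch inhibitor Numb, was higher in cultured cells than in thymus by 1.79 ± 0.14. In this role 3 of 15 genes were higher and 4 lower in thymus, beside 25.3% and 22.0% of all genes. In culture 5 were higher and 7 lower, beside 39.4% and 38.1%. Neurl1a, among the 5, passed the filter on low counts through cultured cells alone, so its direction was set in advance.

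**Figure D4:**
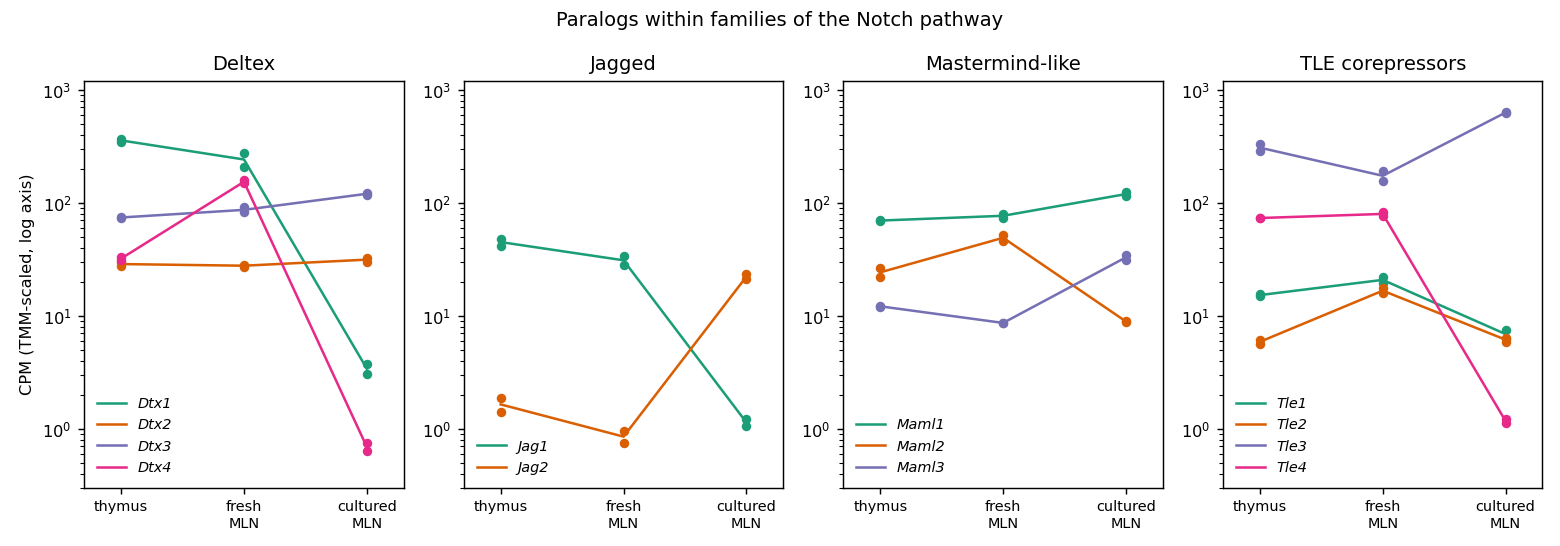
TMM-scaled CPM (log axis) of Deltex, Jagged, Mastermind-like and TLE genes in thymus, fresh MLN and cultured MLN ILC2; points are libraries and lines join group means to guide the eye. In culture Dtx1, Dtx4, Jag1, Maml2 and Tle4 drop while Dtx3, Jag2, Maml3 and Tle3 rise.

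Genes listed here as targets of Notch signals in lymphoid cells did not move together. Of 11 tested, 4 were higher and 2 lower in thymus, beside 25.3% and 22.0% of all genes. In culture 5 were higher and 5 lower, beside 39.4% and 38.1%. Tcf7, which encodes TCF-1, had its groups in the same order as Dtx1, at 613 and 515 CPM in thymus, 220 and 247 in fresh MLN cells and 0.634 and 0.910 in cultured cells. It was 2.41-fold higher in thymus and fell 299.5-fold in culture (log2 -8.23 ± 0.16). Il2ra, the alpha chain of the IL-2 receptor, averaged 865 CPM in thymus, 765 in fresh MLN cells and 7831 in cultured cells, and Myc averaged 83.2, 92.7 and 181 CPM. Cdkn1a, a cell cycle inhibitor that many signals induce, rose from 2.16 to 271 CPM in culture (log2 6.97 ± 0.11). Igf1r, the receptor of insulin-like growth factor 1, was lower in thymus at -0.80 ± 0.17 and had a log2 fold change of -4.98 ± 0.25 in culture. Ptcra, a classic Notch target of thymocytes, had 0, 4 and 1 counts over the thymus, fresh and cultured libraries.

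The genes whose levels over the 6 libraries were nearest in pattern to Notch1, Hey1 and Nrarp were found by the root mean square difference of centred log2 CPM values, among 11119 genes. For Notch1 these were Cdyl, Gm15975 and Srp54a, at differences of 0.0277, 0.0439 and 0.0451. For Nrarp they were Aven, Lsm2 and Raly, at 0.0430, 0.0765 and 0.0803. For Hey1 they were Clec4e, Il31ra and Gm8113, at 0.212, 0.223 and 0.223. Clec4e averaged 6.61 CPM in thymus and 0.0655 and 0.132 in fresh and cultured cells, and Il31ra 7.03 CPM in thymus with no counts in the others. No other gene of the Notch lists was among these 9, which are so few of the 11119 genes searched that nothing is read from this.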

How the data were processed

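The authors deposited, for each of 6 libraries, raw counts of reads per Ensembl gene, per the labels from a stranded mRNA kit. Per the submitters' processing notes the counts were made with HTSeq 0.5.3p9 and the builds mm9 and NCBIM37. For the aligner, annotation release and strand, settings were not given in the sources used here. Symbols were matched by identifier to GENCODE M21 (32919 of 37991), which also gave exon lengths on the later build GRCm38.

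Genes were filtered with filterByExpr, which kept 16231 of 23871 genes with a count, and scaled with TMM. All 6 libraries were fitted with 1 mean per group in R 4.3.3 with edgeR 4.0.16 (quasi-likelihood F test, two-sided, Benjamini-Hochberg adjustment over all genes tested). Each SE was taken from the fold change and its F value (the size on the log2 scale over the root of F). The code was tested on simulated data. The Notch genes and the lists were chosen with earlier results of these data known. Named pathway genes are, per role and comparison, up to 3 called genes with the largest change and 5 CPM or more in the higher group, else the most abundant. Those outside this rule (Maml1, Jag2 in thymus, Dll1, Dll4, Dlk1, Adam10, Adam17, Aph1c, Ep300, Neurl1a, Dtx2, Dtx3, Il2ra, Myc, Ptcra, and Psen2 in culture) were chosen after their values were seen. Of the marker lists, the 2 most abundant genes are named for macrophages, T, B and stromal cells only, and genes without counts are not named for every list (the B cell genes without counts in cultured cells are not reported here). Il17rb, Il5, Cd3d, Cd4, Cd8a, Cd8b1, Dntt, Rag1, Rag2, Cdh5, Kdr and Emcn were chosen after their values were seen. A pseudocount of 0.5 CPM entered the search for similar genes. Alternatives were RLE and upper-quartile factors, library totals, no filter, 5 CPM in 2 libraries, DESeq2 1.42.0, a replicate block, a fit to the 4 libraries compared and each library left out. Counts of pathway genes under other scalings were added after seeing the data.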

Additional observations from a re-analysis of the deposited data

How the results depend on the processing

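Of 21 called values of the Notch genes over the 3 comparisons, 20 kept their direction and their call under all 14 alternatives, and the exception was Notch2 between cultured cells and thymus. It had a log2 fold change of 0.18 without cultured MLN replicate 1, 0.15 without thymus replicate 2 and -0.0071 with library totals alone. Library totals alone moved the median of all genes by -0.22 between cultured and fresh cells and by -0.26 between cultured cells and thymus. Values that were not called changed sign in 14 of 84 refits. Between cultured and fresh cells Hey1 went to -0.023 with upper-quartile factors, -0.22 with library totals alone, -0.0013 with no filter, -0.013 with at least 5 CPM in 2 libraries and -0.0060 with the replicate block, and ranged from -0.50 to 0.41 with 1 library left out. Notch2 went to -0.19 with library totals alone and ranged from -0.057 to 0.12, and Nrarp from -0.18 to 0.062, with 1 library left out. Between thymus and fresh MLN Notch1 ranged from -0.12 to 0.046 with 1 library left out. The cause was not tested. The number of Notch genes called ranged from 6 to 7 in thymus, was 6 throughout in culture, and from 8 to 9 between cultured cells and thymus. With the replicate block, 7, 6 and 9 Notch genes were called, and Notch2 joined the calls between thymus and fresh MLN at -0.22. Same-numbered libraries correlated in their deviations at 0.20, 0.0633 and 0.0303 over the pairs of groups, so the numbers were not taken as pairs. Leaving out 1 library gave 6148 to 7240 calls over all genes in thymus against fresh MLN, 11598 to 12953 in cultured against fresh and 10559 to 11994 in cultured against thymus. Depth limits Hes5, whose libraries had at most 3 counts.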
